A study of Homo sapiens with 2 samples.

Results

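The 39 genes described here encode the chaperones that fold proteins in the cytosol and the mitochondria, with their cochaperones and the heat shock factors HSF1 and HSF2. Members were chosen by gene symbol. The symbols matched 40 of the 58735 rows of the gene count table, because HSPA14 has 2 entries. All 40 had a mean of at least 1 CPM (counts scaled to library size) in the 2 libraries. They were set out as 2 heat shock factors, 15 HSF1-inducible genes, 10 constitutive entries, 8 subunits of the ring chaperone TRiC and 5 mitochondrial genes.

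The cells were NCI-H460, a human large cell lung carcinoma line grown from a pleural effusion, as the sample labels state, while the design text writes NCI-H469. Cells of both libraries were collected at 24 h. For the siCYP4F11 library, cells received an siRNA that targets CYP4F11, a fatty acid omega-hydroxylase of the cytochrome P450 family. The siControl library came from cells of the same line, labelled wild type and as transfected without that siRNA, so both groups share the line and the same batch label. The siRNA sequence and the nature of any control siRNA are not given in the sources used here. There was 1 library per group, so no difference below has a replicate check, and every value compares these 2 libraries rather than the conditions. In bulk RNA, a change in the mix of cells and a change in RNA per cell cannot be told apart.

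The libraries held 13002179 counts for siCYP4F11 and 16207785 for siControl, and 3 counts corresponded to 0.230 and 0.186 CPM. CYP4F11 itself had 972 counts in siCYP4F11 and 3180 in siControl, or 74.5 and 197 CPM. Its log2 ratio, siCYP4F11 over siControl, was -1.40, with a 95% counting interval of -1.51 to -1.30, which covers the exact binomial error of the 2 counts and no other. Of 5 epithelial markers, KRT8, KRT18 and KRT19 carried nearly all counts, and the 5 had a summed level of 2902 CPM in siCYP4F11 and 3483 CPM in siControl. EPCAM had 8 counts in siCYP4F11 and 6 in siControl, and CDH1 had 0 in siCYP4F11 and 1 in siControl. The 4 leukocyte markers summed to 1 count in siCYP4F11 and 2 in siControl, with PTPRC and CD3E at 0 in both. The 4 alveolar or airway markers summed to 4 counts in siCYP4F11 and 3 in siControl, with SCGB1A1 at 0 in both, so defining lung epithelial transcripts were at or near 0. The 4 fibroblast or endothelial markers summed to 69 counts in siCYP4F11 and 60 in siControl, or 5.29 and 3.72 CPM, with PECAM1 and VWF at 0 in both. The part of these markers in the chaperone ratios was not tested.

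Heat shock factors are held inactive in unstressed cells and form trimers on heat shock elements when unfolded proteins accumulate, which switches on chaperone genes. HSP70 proteins bind short hydrophobic stretches with the help of J-domain proteins and nucleotide exchange factors, and pass clients to HSP90. TRiC folds actin, tubulin and other proteins inside a closed double ring, and the HSPD1 and HSPE1 proteins do the same in the mitochondrial matrix. Lung cancer cells are known to depend on HSP90 for many mutated kinases.

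Chaperone transcripts differed little between the siCYP4F11 and siControl libraries. To be called, an entry needed a log2 ratio of at least 0.32 in size and a counting interval that excluded 0. By this rule 4 of the 40 entries were higher, where 6.92% of the 13942 measured genes were, and 2 were lower, where 8.62% were. The higher entries were DNAJB4, HSPE1, HSF2 and the entry ENSG00000187522 of HSPA14, and the lower ones were HSP90AA1 and HSPB1. Shares of 10.0% and 5.00% of 40 entries were near those of all genes. No entry was called at 1.5-fold, where 2.04% of measured genes were higher and 3.44% lower, or 2-fold, where 0.703% were higher and 1.26% lower. A mean of at least 10 CPM was reached by 36 entries, and calls are rarer among all genes at that level. There, 0.490% were higher and 1.07% lower at 1.5-fold, and 0.0104% and 0.125% at 2-fold. An absence of such calls among 40 entries is therefore not particular to chaperones.

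The median log2 ratio over the 40 entries was -0.01, as it was over all measured genes, and the ratios lay between -0.47 and 0.67. Of the entries, 18 were above 0 and 22 below. Counting intervals lay wholly above 0 for 9 entries and wholly below 0 for 15, against 18.6% and 19.2% of all measured genes. Highly expressed genes have narrower counting intervals. Of the 23 entries with a mean of at least 100 CPM, 4 had an interval above 0 and 12 below it, against 31.6% and 33.9% of the 2062 genes at that level. The median log2 ratio of these 23 entries was -0.08, with 6 above 0 and 17 below. Over the 2062 genes it was -0.002, with 1017 above 0 and 1045 below. After a correction for GC content, described below, the medians were -0.056 over the 40 entries and -0.004 over all measured genes. All entries together took 1.34% of the counts in siCYP4F11 and 1.41% in siControl.

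**Figure D1:**
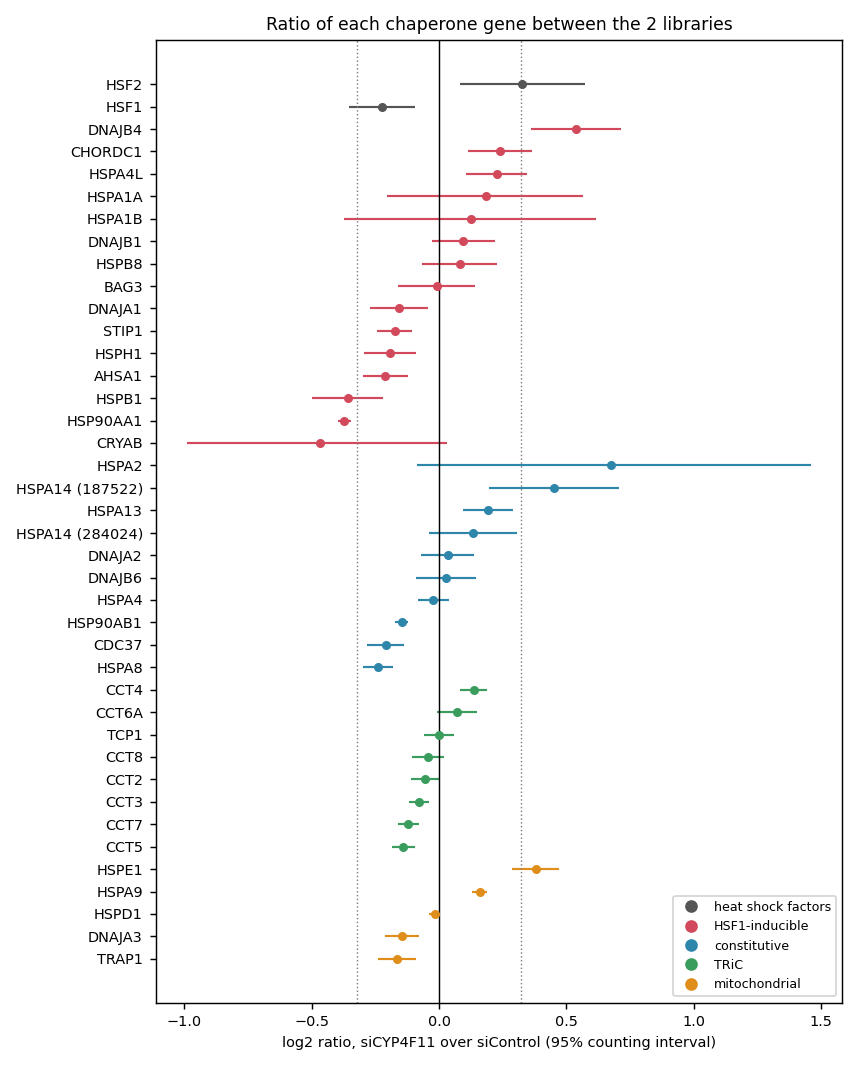
Log2 ratio of siCYP4F11 over siControl for each of the 40 chaperone entries (x axis), grouped by role and ordered within each group, with bars for the 95% counting interval. Dotted lines mark 0.32 in either direction. DNAJB4 at 0.54 and HSP90AA1 at -0.37 lie beyond them with intervals that exclude 0, while those of HSPA2 and CRYAB include 0.

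Levels between genes are given in TPM, which divides counts by gene length. HSP90AB1 was the most abundant member, at 1835 TPM in siCYP4F11 and 2041 in siControl. HSPD1 followed with 1773 TPM in siCYP4F11 and 1801 in siControl, and HSP90AA1 with 990 in siCYP4F11 and 1286 in siControl. In siCYP4F11, HSP90AB1 ranked 49 and HSPD1 ranked 55 among all genes of the table. The lowest members were HSPA2, at 1.47 and 0.923 TPM, CRYAB at 4.25 and 5.92 TPM, and HSPA1B at 6.46 and 5.95 TPM, siCYP4F11 before siControl. The range from HSPA2 to HSP90AB1 was far wider than any difference between the libraries. Deposited lengths cover all exons of a gene, so TPM depends on how much of that length a transcript uses.

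**Figure D2:**
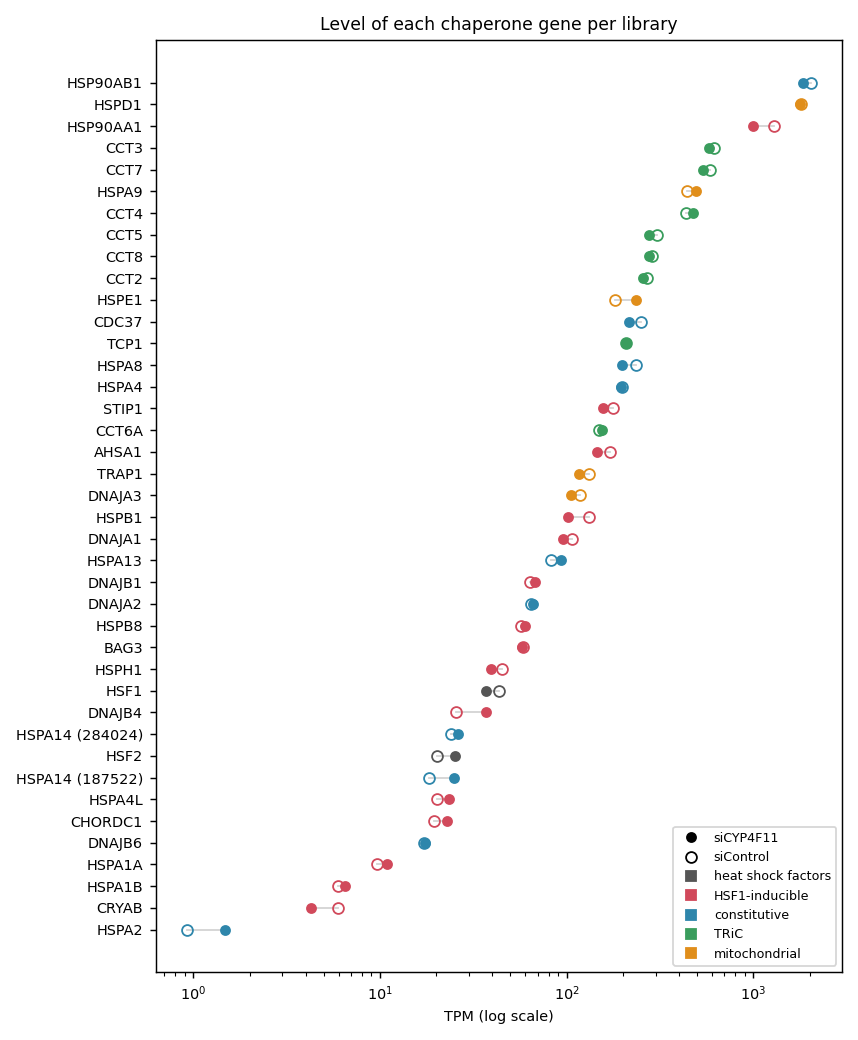
Level of each chaperone entry in TPM (log x axis) in siCYP4F11 (filled) and siControl (open), ordered by the siCYP4F11 level and coloured by role. HSP90AB1, HSPD1 and HSP90AA1 lead, and the pairs of points lie close together against a range from 1.47 to 1835 TPM in siCYP4F11.

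The heat shock factors differed in opposite directions in the point estimates. HSF1, the main activator of the heat shock response, had 809 counts in siCYP4F11 and 1168 in siControl, or 62.0 and 72.4 CPM. Its log2 ratio was -0.22 (95% counting interval -0.35 to -0.09), short of the 0.32 threshold. HSF2, a related factor that can join HSF1 in mixed trimers, had 281 counts in siCYP4F11 and 277 in siControl, or 21.5 and 17.2 CPM. Its ratio of 0.33 (0.08 to 0.57) passed the rule narrowly. Their transcripts differ in base composition, at 63.9% GC for HSF1 and 40.9% for HSF2. After a correction that subtracts the smooth trend of ratios on GC content, the ratios were -0.09 for HSF1 and 0.22 for HSF2, and HSF2 no longer passed.

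HSP90AA1, the stress-inducible cytosolic HSP90, was lower in siCYP4F11, with 21367 counts against 34177 in siControl. The levels were 1637 CPM in siCYP4F11 and 2117 CPM in siControl, with a log2 ratio of -0.37 (-0.40 to -0.35). HSP90AA1 (ENSG00000080824) is annotated on GRCh38 at chr14:102080738-102139699, minus strand. Of the 507 genes with a mean of at least 300 CPM, 12 had a lower ratio. Its constitutive partner HSP90AB1 had 22487 counts in siCYP4F11 and 30799 in siControl, at -0.15 (-0.17 to -0.12), short of the rule. HSP90AA1 therefore made up 48.7% of the counts of the pair in siCYP4F11 (exact binomial interval 48.3% to 49.2%), against 52.6% in siControl (52.2% to 53.0%). This share does not depend on library-size scaling. HSP90AA1 shares 11.3% of its 50-base words with other genes and HSP90AB1 16.6%. With the counts of its closest copy HSP90AA2P added, HSP90AA1 was at -0.37, and HSP90AB1 with HSP90AB3P was at -0.15.

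The start regions of both HSP90 genes hold the heat shock element, and they are shown with those of other members to set the motif beside the ratios. Sequences are RefSeq start regions on GRCh38.p14, from 250 bases before to 50 after an annotated start, found for 35 of the 39 symbols in 49 windows. The motif searched was GAANNTTCNNGAA or its other-strand form TTCNNGAANNTTC, and capitals mark every match, overlapping ones merged. This full motif was found in 7 of the 49 member windows (14.3%), 1 window each of 7 genes, and in 0.490% of all 35116 windows. Its first 8 bases alone, in either form, were found in 20 member windows (40.8%) and in 13.5% of all windows. Among the inducible genes, windows of HSPA1A, HSPA1B, HSPB1, HSPB8, DNAJB1, DNAJB4, HSPA4L and STIP1 held this shorter form and not the full motif. So did windows of HSPA9, TCP1, CCT2 and CCT4. Matches described below are to the full motif. HSP90AA1 (chr14:102086995-102087294, minus strand) has a match that begins 88 bases before the start. HSP90AB1 (chr6:44247693-44247992, plus strand) has matches from 165 and 112 bases before it.
HSP90AA1: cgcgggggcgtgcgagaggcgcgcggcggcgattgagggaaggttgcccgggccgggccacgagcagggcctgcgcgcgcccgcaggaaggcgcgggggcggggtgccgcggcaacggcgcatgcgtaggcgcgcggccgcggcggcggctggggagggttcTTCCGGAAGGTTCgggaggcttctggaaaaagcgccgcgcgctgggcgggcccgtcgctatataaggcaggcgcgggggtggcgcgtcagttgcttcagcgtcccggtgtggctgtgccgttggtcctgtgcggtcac
HSP90AB1: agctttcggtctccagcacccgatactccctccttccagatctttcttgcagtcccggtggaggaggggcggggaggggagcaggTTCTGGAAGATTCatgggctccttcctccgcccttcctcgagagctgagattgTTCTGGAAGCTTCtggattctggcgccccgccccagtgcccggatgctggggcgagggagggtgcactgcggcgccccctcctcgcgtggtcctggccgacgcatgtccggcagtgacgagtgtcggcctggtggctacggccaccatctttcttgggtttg

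HSPA8, the constitutive HSP70 that also strips clathrin from vesicles, and CHORDC1, an HSP90 cochaperone, carry the same motif and had ratios of opposite sign. The HSPA8 window (chr11:123062087-123062386, minus strand) has matches from 230 and 55 bases before the start. The CHORDC1 window (chr11:90223000-90223299, minus strand) has 3 overlapping matches from 60 bases before it.
HSPA8: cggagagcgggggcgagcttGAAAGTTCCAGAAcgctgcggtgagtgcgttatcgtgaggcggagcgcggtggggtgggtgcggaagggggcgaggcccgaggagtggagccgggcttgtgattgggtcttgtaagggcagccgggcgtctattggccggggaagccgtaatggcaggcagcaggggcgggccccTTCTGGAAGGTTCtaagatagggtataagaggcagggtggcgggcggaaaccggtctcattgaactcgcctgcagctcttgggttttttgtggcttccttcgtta
CHORDC1: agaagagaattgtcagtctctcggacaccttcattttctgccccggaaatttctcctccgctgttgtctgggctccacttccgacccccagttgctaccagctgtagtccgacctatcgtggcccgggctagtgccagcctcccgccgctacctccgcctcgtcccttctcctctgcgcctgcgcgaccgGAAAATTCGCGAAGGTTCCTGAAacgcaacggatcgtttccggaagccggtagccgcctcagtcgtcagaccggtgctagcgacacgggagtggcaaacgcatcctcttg

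HSPA8 had 3943 counts in siCYP4F11 and 5753 in siControl, or 302 and 356 CPM, a log2 ratio of -0.24 (-0.30 to -0.18). CHORDC1 had 998 counts in siCYP4F11 and 1045 in siControl, or 76.4 and 64.7 CPM after scaling, a ratio of 0.24 (0.11 to 0.37), and 0.09 after the GC correction. Neither reached the 0.32 threshold. The remaining genes with the full motif were DNAJA1 at -0.16, DNAJB6 at 0.03 (-0.09 to 0.15) and HSPD1 at -0.02 (-0.04 to 0.004). The intervals of DNAJB6 and HSPD1 include 0. Of the 7 genes with the full motif, 2 had a ratio above 0 with CHORDC1 the higher, and 5 had one below 0 with HSP90AA1 the lowest. Over all measured genes 6859 were above 0 and 7083 below.

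The 15 HSF1-inducible genes had a median log2 ratio of -0.01, with 7 above 0 and 8 below, of which BAG3 changes sign when libraries are scaled by total counts. Of these, 1 was called higher and 2 lower. The stress-inducible HSP70 genes HSPA1A and HSPA1B, the classic readout of heat shock, had few counts. HSPA1A had 111 counts in siCYP4F11 and 121 in siControl, and HSPA1B had 67 in siCYP4F11 and 76 in siControl. Their ratios were 0.18 for HSPA1A and 0.13 for HSPA1B, with intervals that include 0. After the GC correction they were 0.29 and 0.23. Since 71.3% of the 50-base words of HSPA1A occur in HSPA1B or another gene, the pair was also summed, at 178 counts in siCYP4F11 and 197 in siControl and a ratio of 0.16 (-0.14 to 0.46). The pair was 4.32% of its own counts plus those of HSPA8 in siCYP4F11 (3.72% to 4.99%), against 3.31% in siControl (2.87% to 3.80%). HSPA8 alone was at -0.24, while the interval of the pair's own ratio includes 0. These shares were not corrected for GC content, which is 59.3% for HSPA1A, 58.7% for HSPA1B and 46.6% for HSPA8.

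Genes of small heat shock proteins, which hold unfolded proteins without using ATP, differed in the sign of their point estimates. Only HSPB1 had an interval that excluded 0. HSPB1 (HSP27) had 686 counts in siCYP4F11 and 1088 in siControl, or 52.5 and 67.4 CPM, and was lower at -0.36 (-0.50 to -0.22). At 63.6% GC it is among the GC-rich members, and its ratio was -0.23 after the GC correction, short of the rule. HSPB8, which works with BAG3 to clear aggregates, had 702 counts in siCYP4F11 and 821 in siControl and a ratio of 0.08 (-0.07 to 0.23). CRYAB, alpha-B crystallin, had 53 counts in siCYP4F11 and 91 in siControl, and its ratio of -0.47 had an interval from -0.99 to 0.03, at 4.06 and 5.64 CPM. A difference in CRYAB was therefore not detectable at this depth.

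Among the J-domain genes, whose proteins deliver clients to HSP70, DNAJB4 stood highest. It had 575 counts in siCYP4F11 and 490 in the deeper siControl library, or 44.0 against 30.4 CPM, a log2 ratio of 0.54 (0.36 to 0.71). DNAJB4 (ENSG00000162616) is annotated at chr1:77979175-78017964, plus strand. Of the 4243 genes with a mean between 30 and 100 CPM, 4222 had a lower ratio. After the GC correction DNAJB4 was at 0.40 and still passed the rule. Its close relative DNAJB1, the main partner of inducible HSP70, had 1017 counts in siCYP4F11 and 1177 in siControl. The DNAJB1 ratio was 0.10 (-0.03 to 0.22), and 0.17 after the GC correction. DNAJA1 had 1072 counts in siCYP4F11 and 1479 in siControl, at -0.16 (-0.27 to -0.04).

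Exchange factors and HSP90 partners within the inducible set had ratios between -0.21 and 0.24. HSPH1, an HSP110 exchange factor that also dissolves aggregates, had 1355 counts in siCYP4F11 and 1915 in siControl, at -0.19 (-0.29 to -0.09). Its relative HSPA4L had 1122 counts in siCYP4F11 and 1186 in siControl, at 0.23 (0.11 to 0.35). Both transcripts are 39.3% GC, and after the GC correction the values were -0.3196 for HSPH1, just short of the threshold of 0.3219, and 0.10 for HSPA4L. BAG3, an exchange factor that routes clients to autophagy, had 648 counts in siCYP4F11 and 807 in siControl, at -0.01 (-0.16 to 0.14), and 0.09 after the GC correction. STIP1, which bridges HSP70 and HSP90, had 3007 counts in siCYP4F11 and 4197 in siControl, at -0.17 (-0.24 to -0.11). AHSA1, which speeds the HSP90 ATPase, had 1771 counts in siCYP4F11 and 2536 in siControl, at -0.21 (-0.30 to -0.12).

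Summed over the 15 inducible genes, counts were 34551 in siCYP4F11 and 51206 in siControl, a log2 ratio of -0.26 (-0.28 to -0.24). HSP90AA1 holds most of these counts. Without it the sums were 13184 in siCYP4F11 and 17029 in siControl, and the ratio was -0.06 (-0.10 to -0.03), so HSP90AA1 carries most of the difference in the sum. The 10 constitutive entries summed to 38155 counts in siCYP4F11 and 51171 in siControl, at -0.12 (-0.14 to -0.10), where HSP90AB1 holds most of the counts.

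**Figure D3:**
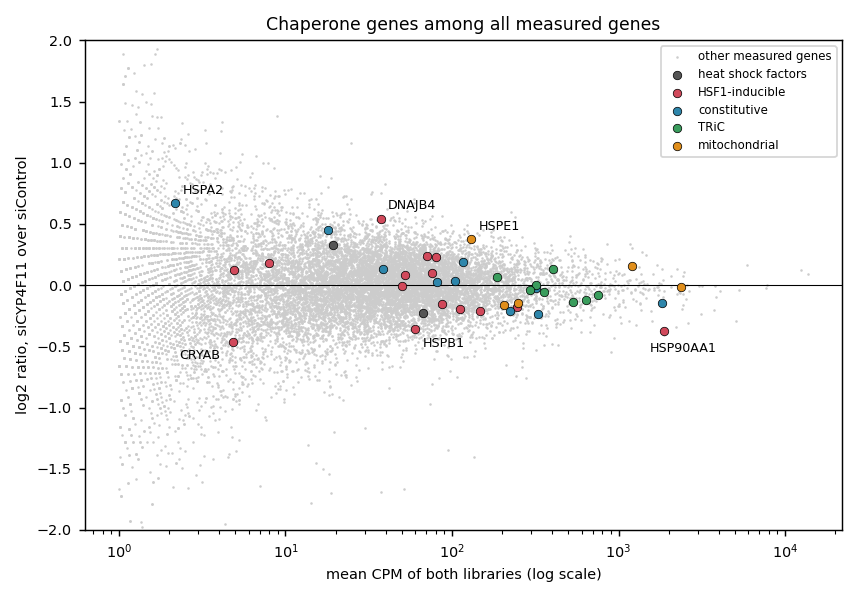
Log2 ratio of siCYP4F11 over siControl (y axis, drawn from -2 to 2, which leaves out 21 genes) against mean CPM (log x axis) for all measured genes in grey and the chaperone entries in colour. The chaperones lie within the cloud of other genes, with DNAJB4 and HSPE1 near its upper edge and HSP90AA1 near its lower edge at their levels.

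The 10 constitutive entries had a median log2 ratio of 0.03, with 6 above 0 and 4 below, and 1 was called. HSPA14, an HSP70 that sits at the ribosome, has 2 overlapping entries on the plus strand of chromosome 10. The entry ENSG00000187522 had 272 counts in siCYP4F11 and 246 in siControl, or 20.8 and 15.2 CPM, and was higher at 0.45 (0.20 to 0.71). The entry ENSG00000284024 had 528 counts in siCYP4F11 and 595 in siControl, at 0.13 (-0.04 to 0.31). Of the words of ENSG00000187522, 15.9% occur in the other entry, against 8.29% of the words of ENSG00000284024. Reads from these shared parts may be split between the 2 entries, but most of each entry is not shared. How far such splitting enters the ratio of 0.45 was not tested. The sum of both entries, which also takes in their distinct parts, was 800 counts in siCYP4F11 and 841 in siControl. Its ratio was 0.23 (0.09 to 0.38), short of the threshold. HSPA2, an HSP70 best known from germ cells, had 35 counts in siCYP4F11 and 27 in siControl, or 2.68 and 1.67 CPM, and its ratio of 0.67 had an interval from -0.085 to 1.46.

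None of the other constitutive genes was called. HSPA4, an exchange factor of the HSP110 family, had 4129 counts in siCYP4F11 and 5184 in siControl, at -0.02. HSPA13, an HSP70 found with the endoplasmic reticulum, had 1613 counts in siCYP4F11 and 1745 in siControl, at 0.19 (0.09 to 0.29), and 0.02 after the GC correction. DNAJA2, a J protein that supports refolding, had 1371 counts in siCYP4F11 and 1655 in siControl, at 0.03, and -0.05 after the GC correction. DNAJB6, which restrains the aggregation of polyglutamine proteins, had 1078 counts in siCYP4F11 and 1307 in siControl, at 0.03. CDC37, which brings kinases to HSP90, had 2699 counts in siCYP4F11 and 3860 in siControl, at -0.21 (-0.28 to -0.14), and -0.09 after the GC correction.

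The 8 TRiC subunits were the most uniform group. Their log2 ratios ran from -0.14 to 0.14 with a median of -0.05 and an SD of 0.094 over subunits, and 0 were called. For scale, the SD was 0.16 over the 507 genes with a mean of at least 300 CPM and 0.19 over the 1555 genes between 100 and 300 CPM. Each TRiC ring holds every subunit, and transcript levels spread 3.75-fold in siCYP4F11, from CCT6A at 155 TPM to CCT3 at 582 TPM. In siControl the same genes marked the ends, at 149 and 617 TPM, a 4.15-fold spread. Summed TRiC counts were 44735 in siCYP4F11 and 57276 in siControl, at -0.05 (-0.07 to -0.03).

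CCT4 was the highest subunit by ratio, with 5519 counts in siCYP4F11 and 6213 in siControl, or 423 and 385 CPM, at 0.14 (0.08 to 0.19). CCT5 was the lowest, with 6625 and 9029 counts, or 507 CPM in siCYP4F11 and 559 CPM in siControl, at -0.14 (-0.19 to -0.09), and 28.2% of its words occur in antisense transcripts. CCT7 had 7950 counts in siCYP4F11 and 10684 in siControl, at -0.12 (-0.16 to -0.08), and CCT3 had 9617 in siCYP4F11 and 12557 in siControl, at -0.08 (-0.12 to -0.04). Intervals of the other 4 subunits, before any GC correction, included 0. TCP1 had 4187 counts in siCYP4F11 and 5178 in siControl, at -0.0001, and CCT2 had 4563 in siCYP4F11 and 5862 in siControl, at -0.06. CCT8 had 3781 counts in siCYP4F11 and 4818 in siControl, at -0.04, and CCT6A had 2493 in siCYP4F11 and 2935 in siControl, at 0.07, and -0.02 after the GC correction. The correction also moved CCT4 to 0.07, CCT2 to -0.12 and CCT8 to -0.14. These and CCT6A moved beyond their counting intervals, while the other subunits stayed within theirs.

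Within TRiC, CCT4 made up 12.3% of the counts in siCYP4F11 (12.03% to 12.65%), against 10.8% in siControl (10.6% to 11.1%). CCT5 made up 14.8% (14.5% to 15.1%) against 15.8% (15.5% to 16.1%), and CCT7 17.8% (17.4% to 18.1%) against 18.7% (18.3% to 19.0%), siCYP4F11 before siControl. CCT6A made up 5.57% in siCYP4F11 (5.36% to 5.79%) and 5.12% in siControl (4.95% to 5.31%). Shares of the other 4 subunits had overlapping intervals. These gaps exceed counting error but have no replicate spread to be set against, and the shares were not corrected for GC content.

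Of the 5 mitochondrial genes, 1 was called higher and none lower. HSPE1, the lid of the HSPD1 folding chamber, had 1922 counts in siCYP4F11 and 1827 in the deeper siControl library. Its level was 147 CPM in siCYP4F11 and 113 CPM in siControl, a log2 ratio of 0.38 (0.29 to 0.47), and of the 1555 genes between 100 and 300 CPM, 1529 had a lower ratio. HSPD1, the chamber itself, had 30941 counts in siCYP4F11 and 38724 in siControl, at -0.02 (-0.04 to 0.004). HSPE1 was 5.85% of the counts of the pair in siCYP4F11 (5.60% to 6.11%), against 4.51% in siControl (4.31% to 4.71%). After the GC correction HSPE1 was at 0.36 and still passed the rule.

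The pair is arranged head to head on chromosome 2, HSPD1 on the minus strand and HSPE1 on the plus strand, with a shared stretch between their starts. RefSeq places the HSPE1 start at 197500379 and HSPD1 starts at 197500274 and 197499840, which is 105 and 539 bases away. The window of the more distant HSPD1 start (chr2:197499791-197500090, minus strand) holds 2 overlapping motif matches, from 245 and 240 bases before it, and is shown because the partners lie side by side and had unlike ratios. The HSPE1 window and that of the nearer HSPD1 start held no match. However, the HSPE1 window begins at 197500129, beyond the end of the matched HSPD1 window at 197500090. The matches therefore lie between the more distant HSPD1 start and the HSPE1 start, upstream of both, and fall outside the HSPE1 window because of its limits. These matches lie downstream of the nearer HSPD1 start at 197500274. Whether they act on either gene was not tested.
HSPD1: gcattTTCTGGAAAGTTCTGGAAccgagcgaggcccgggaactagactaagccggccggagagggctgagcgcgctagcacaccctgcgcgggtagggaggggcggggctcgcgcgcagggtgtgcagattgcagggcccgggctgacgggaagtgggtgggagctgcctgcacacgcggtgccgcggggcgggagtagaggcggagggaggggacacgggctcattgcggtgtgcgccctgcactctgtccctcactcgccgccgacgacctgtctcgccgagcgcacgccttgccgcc

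The annotated HSPD1 gene extends past HSPE1 on the opposite strand, and 11.04% of HSPE1 words occur in antisense transcripts. The strand setting of the counting is not known, so reads of the 2 genes may be mixed. HSPE1 also shares 11.7% and HSPD1 13.2% of their words with other genes. With the counts of HSPD1P1 added, HSPD1 was at -0.02, and the read-through gene HSPE1-MOB4 had 0 counts in both libraries.

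HSPA9 (mortalin), which pulls proteins into the matrix and folds them, had 16637 counts in siCYP4F11 and 18423 in siControl, at 0.16 (0.13 to 0.19). TRAP1, the mitochondrial HSP90, had 2514 counts in siCYP4F11 and 3487 in siControl, or 193 and 216 CPM, at -0.17 (-0.24 to -0.09), with 21.4% of its words in antisense transcripts. DNAJA3, the J-domain partner of HSPA9, had 3077 counts in siCYP4F11 and 4209 in siControl, at -0.15 (-0.21 to -0.08). After the GC correction these were 0.11, -0.07 and -0.08. The 5 mitochondrial genes together had 55091 counts in siCYP4F11 and 66670 in siControl, at 0.03 (0.01 to 0.05).

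**Figure D4:**
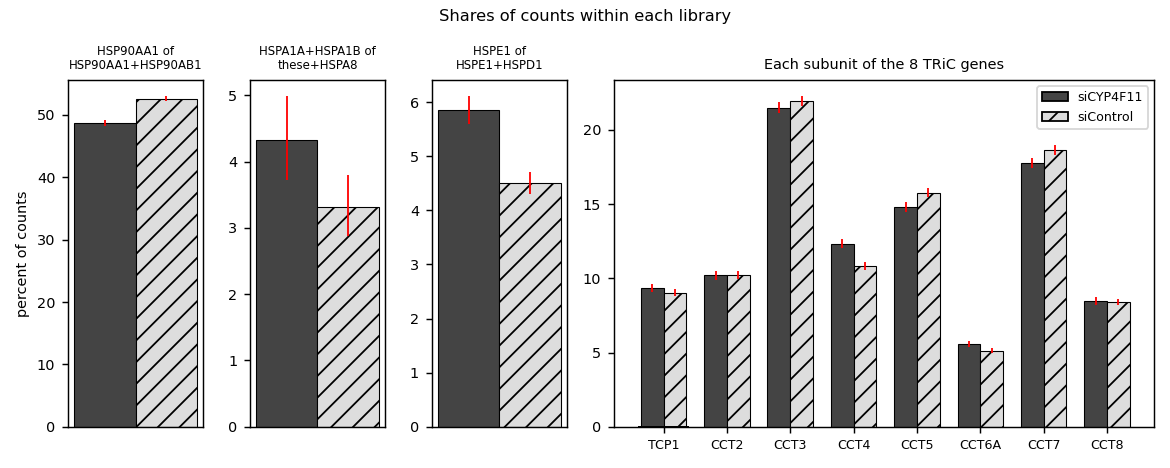
Share of counts within each library (y axes, percent, each starting at 0) for HSP90AA1, the HSPA1A and HSPA1B pair and HSPE1 among their partners, and for each TRiC subunit, with siCYP4F11 left of siControl and bars for exact 95% binomial intervals. HSP90AA1 is at 48.7% against 52.6%, HSPE1 at 5.85% against 4.51% and CCT4 at 12.3% against 10.8%.

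Ratios across the genome decreased with the GC content of the transcripts. Over 9590 genes with a mean of at least 10 CPM the Spearman correlation was -0.42, and over the 40 chaperone entries it was -0.44, both as descriptions across genes of the same 2 libraries. The median ratio was 0.15 among the 959 genes of lowest GC content and -0.13 among the 959 of highest. Count-weighted GC content was 48.9% in siCYP4F11 and 49.3% in siControl. The part of GC content in the ratios of single chaperones was not tested beyond the corrected values given above. HSP90AA1 was at -0.41 after the correction and was then the only called lower entry.

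**Figure D5:**
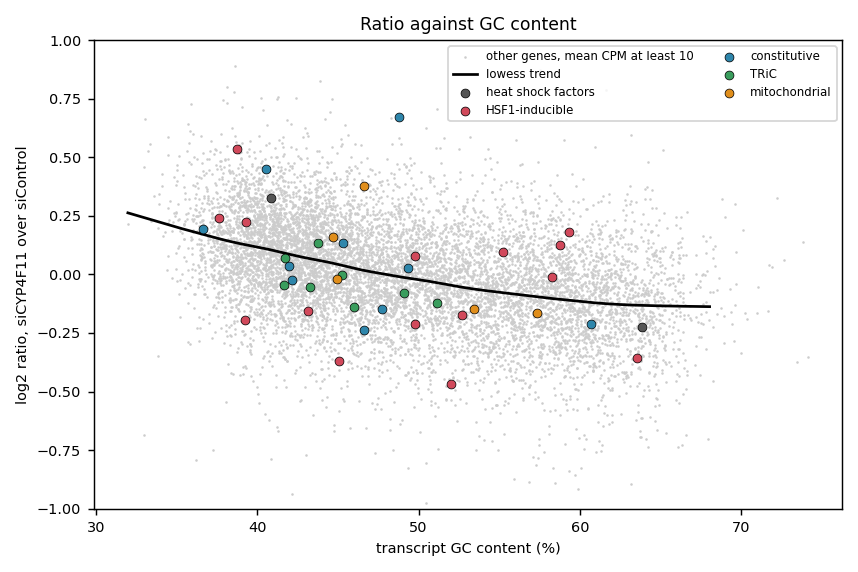
Log2 ratio of siCYP4F11 over siControl (y axis, drawn from -1 to 1, which leaves out 13 grey genes) against transcript GC content in percent (x axis) with the lowess trend as a line. HSF2 and DNAJB4 lie on the GC-poor side where the trend is above 0, and HSPB1 and HSF1 on the GC-rich side where it is below 0.

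Few other genes of the folding machinery were called. Of 70 measured genes in 5 lists, 1 was higher and 3 were lower by the same rule, or 1.43% and 4.29%, against 6.92% and 8.62% of all measured genes. Their median was -0.05, and the 5 lists had medians between -0.08 and 0.11. Of 22 further HSP70 cochaperones, DNAJB5, a J-domain gene, was lower at -0.99 (-1.95 to -0.15) with 16 counts in siCYP4F11 and 40 in siControl. Of 13 further HSP90 cochaperones none was called. The largest ratio there was -0.26 (-0.35 to -0.18) for RUVBL2, an ATPase that assembles large complexes with HSP90.

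Prefoldin, which hands new actin and tubulin to TRiC, held calls in both directions among 10 genes of its list. PFDN4 had 281 counts in siCYP4F11 and 526 in siControl and was lower at -0.60 (-0.81 to -0.39), with 72 of the 3286 genes between 10 and 30 CPM below it. VBP1, another prefoldin subunit, had 2215 counts in siCYP4F11 and 2187 in siControl and was higher at 0.32 (0.24 to 0.41), and was at 0.16 after the GC correction. Of 14 further mitochondrial folding and quality control genes, HSCB, a J-domain gene of iron-sulfur cluster assembly, was lower at -0.54 (-0.90 to -0.19), with 104 counts in siCYP4F11 and 187 in siControl and 20.8% of its words in antisense transcripts. Of 11 measured further heat shock targets none was called, and the largest ratio was 0.24 (0.17 to 0.30) for CACYBP. HSPA6, an HSP70 gene that is nearly silent without heat stress, had 0 counts in siCYP4F11 and 1 in siControl, both under the floor of 3 counts.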

How the data were processed

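Poly-A RNA was made into dUTP strand-specific libraries, per the labels' protocols. The authors deposited whole-number read counts per gene for 2 libraries, not normalised, and gene lengths. Named in the submitters' processing notes are HISAT2 2.2.1, fastp, edgeR 4.0.16, GRCh38 and featureCounts 2.0.6. Their roles and the strand setting are not given in the sources used here. All 58735 identifiers and lengths matched GENCODE release 29.

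Library sizes were scaled by TMM (edgeR 4.0.16, R 4.3.3). Ratios were log2 of siCYP4F11 over siControl, with 0.5 added to each count. Intervals are exact Clopper-Pearson 95% intervals of the siCYP4F11 share of both counts. They cover counting error only and treat reads as independent molecules. Reads are not, so the intervals may be too narrow. No p-value was computed with 1 library per group. Genes with a mean of at least 1 CPM count as measured. Shared sequence is the share of 50-base words found in transcripts of another gene, with over 10% called shared. The GC correction was a lowess fit (span 0.3) over genes with a mean of at least 10 CPM. The calculations ran in Python 3.11.15 with statsmodels 0.14.6 and scipy 1.17.1, and were tested on simulated data.

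Members, role groups and further lists were chosen with earlier results of these data known. All members are named, with intervals for those called and for the ends of each role group, and for others where useful. Of further lists, up to 3 called genes or the largest ratio are named. Alternatives were other library sizes (DESeq2 1.42.0 among them), 2 added to each count, other filters, the GC correction and genes that share sequence left out or summed.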

Additional observations from a re-analysis of the deposited data

How the results depend on the processing

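With total counts, DESeq2 or upper-quartile library sizes, or 2 added to each count, the same 6 entries were called at the 0.32 threshold and all 40 single ratios stayed within their counting intervals. TCP1 changed sign with each of the 3 other library sizes, and BAG3 with total counts, both near 0. The GC correction kept 4 of the 6 calls, with 3 higher and 1 lower, lost HSF2 and HSPB1, moved 15 of 40 single ratios beyond their counting intervals, and changed the sign of CCT6A, DNAJA2 and BAG3. With members that share over 10% of their words left out, 2 were higher and 1 lower. With an interval wholly past the fold, 1 was higher and 1 lower. These follow from fewer genes and from a stricter rule. The filters on low values, at none and at a mean of at least 5 CPM, changed no count of calls. Counts at 1.5-fold and 2-fold were 0 in both directions under each alternative run. Medians lie near 0 and changed sign in places. That of the inducible genes became 0.09 with the GC correction and 0.0016 with total counts, and that of the constitutive genes -0.02 with the GC correction. Means in place of medians were 0.01 over all members and 0.04 over mitochondrial genes, opposite in sign to the medians. Without a change of sign, the inducible median was -0.08 with HSPA1A and HSPA1B summed. The mitochondrial median was -0.15 without members that share words, against -0.02 with them. The log2 ratio of summed counts over all members was -0.0853, and -0.0737 with total counts, -0.0302 without members that share words and -0.0402 without HSP90AA1. Without members that share words, sums were at -0.0657 for inducible, -0.0802 for constitutive and 0.0736 for mitochondrial genes, the last 2 opposite in sign to their medians there, and without HSP90AA1 inducible genes were at -0.0629. Summed counts and leaving out HSP90AA1 were chosen after the data were seen. No paired analysis was possible because there is 1 library per group, which also allows no replicate to be left out. Depth limits CRYAB, HSPA2, HSPA1A and HSPA1B most.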

Other observations

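Among all measured genes, 45 had a match to GAANNTTCNNGAA or its other-strand form in a start window. Their median log2 ratio, siCYP4F11 over siControl, was -0.10, with 16 above 0 and 29 below. Without the 7 chaperone genes it was -0.09 over 38 genes, with 14 above 0 and 24 below. The 9986 measured genes with a window and no match had a median of -0.00, with 4956 above 0 and 5030 below. Median GC content was 48.2% with a match and 48.6% without, and after the GC correction the medians were -0.08 and -0.00. The search was made after the ratios were seen, and the difference was not tested.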
